A study of Mus musculus with 8 samples.

Results

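The set described here holds the stress-induced immediate early genes Atf3, Dusp1, Jun, Fosb, Fosl1, Egr2 and Egr3, 7 of the 754 genes measured. They were chosen by symbol, as every gene row that is Atf3, Dusp1 or a member of the Fos, Jun or Egr families, and the choice was made with earlier results of these data known: Atf3 and Dusp1 had been picked on their lower values under DSHN after scaling to 4 housekeeping genes, namely Oaz1, Ppia, Rpl19 and Tubb5. The difference between DSHN and DMSO in these genes is therefore given as a description, with no test. Fos, Junb and Egr1 are not analysed here. All 7 symbols matched 1 protein-coding gene each in the RefSeq table of the mouse.

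RNA was counted with NanoString nCounter, which counts colour-coded probes hybridised to RNA without amplification. All 24 mice were Balb/c animals carrying a graft of 4T1, a breast cancer line from the same strain that metastasises to the lung. From 10 days after the graft they received, daily for 7 days, either placebo (DMSO) or the NR0B2 agonist DSHN, with a dosage of 10 mg/kg in the labels. For each sample the lungs of 3 mice from 1 treatment group were combined before enzymatic dissociation and bead isolation by CD11b and CD11c, which left 4 DMSO and 4 DSHN pools. The comparison asks what an NR0B2 agonist does to gene expression in myeloid cells of lungs exposed to this tumour. Ungrafted mice are not analysed here. Because each pool is bulk RNA, fewer cells of a type and less RNA per cell cannot be told apart.

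Immediate early genes are transcribed within minutes of a stimulus from factors already present in the cell, without new protein synthesis. MAP kinases and calcium signals act on serum response factor, its partners and CREB at their promoters, and the products then switch on a second set of genes or shut the signal off again. Jun, Fosb and Fosl1 are subunits of AP-1, a dimer of basic leucine zipper proteins; Atf3 is a basic leucine zipper protein of the ATF and CREB family that often represses inflammatory genes in macrophages; Egr2 and Egr3 are zinc finger factors of the early growth response family; and Dusp1 is a phosphatase that inactivates p38 and JNK. In myeloid cells these genes respond to bacterial products, cytokines, adhesion and cell stress. Enzymatic digestion of tissue into single cells is also known to induce them, and all 8 pools went through that step.

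Recovered probe counts summed over the gene rows were 532700 to 923800 in 7 of the pools and 123800 in DSHN 1. Genes above background, that is, with counts over the negative controls (their mean plus 2 SD), numbered 293 in DSHN 1 and 498 to 559 elsewhere. DMSO 1 had the lowest spike-in counts, with a geometric mean of 562.6 against 3281 to 6392 in the others. The labels name dendritic cells as the source. Of 14 dendritic cell markers on the panel, 5 were above background in every pool, beside 9 of 12 neutrophil and 11 of 19 monocyte and macrophage markers. The same held for 291 of all 754 genes, a number that the 293 genes of DSHN 1 limit. The 5 dendritic cell markers above background in every pool were Itgax, H2-Ab1, H2-Aa, H2-Eb1 and Cd74. Batf3, Irf8, Irf4, Ccr7 and Fscn1 were each above background in 7 pools, and Lamp3 in 5. The rest of the 14 did not reach a deposited value of 20 in at least 4 pools. The neutrophil marker Camp and some monocyte and macrophage markers, among them Cx3cr1 and Mertk, were also above background in 7 pools. Since markers of all 3 kinds were detected, the pools are called myeloid cells here. Itgam and Itgax, which encode CD11b and CD11c, were above background in all 8 pools, but on the scale used here DMSO 1 had the highest Itgam, 10.96 against 8.14 to 9.24, and the lowest Itgax, 7.53 against 9.06 to 9.87. Values are given as log2 of the deposited value after each pool was scaled to the mean of the 4 housekeeping genes. Levels of different genes are not compared, since each probe has its own efficiency.

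Promoter sequence is shown for 4 of these genes: Atf3 and Dusp1, which the results turn on, Jun, which had the highest correlation with Dusp1 between pools (it did not pass adjustment), and Fosb, which had the smallest spread. Each run holds 250 bases before and 50 bases after an annotated transcription start, 5′ to 3′ on the gene's strand, from RefSeq (GRCm38.p6). Capitals mark matches to the motifs searched on both strands: the cyclic AMP response element TGACGTCA, its core TGACG, the variant TGACATCA, the AP-1 site TGANTCA, the EGR sites GCGTGGGCG and GCGGGGGCG, the box CCAAT, and the CArG box bound by serum response factor. A core inside a full element is 1 of its matches, and a match on the opposite strand is printed as it reads on the gene's strand.
Atf3 promoter, chr1:191183284-191183583, minus strand: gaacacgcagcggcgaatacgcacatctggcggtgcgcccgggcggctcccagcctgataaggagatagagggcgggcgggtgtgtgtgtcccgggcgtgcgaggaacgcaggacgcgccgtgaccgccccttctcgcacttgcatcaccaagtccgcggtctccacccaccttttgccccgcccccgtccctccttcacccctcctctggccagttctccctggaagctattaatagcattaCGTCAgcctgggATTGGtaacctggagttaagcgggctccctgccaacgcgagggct
Dusp1 promoter, chr17:26508423-26508722, minus strand: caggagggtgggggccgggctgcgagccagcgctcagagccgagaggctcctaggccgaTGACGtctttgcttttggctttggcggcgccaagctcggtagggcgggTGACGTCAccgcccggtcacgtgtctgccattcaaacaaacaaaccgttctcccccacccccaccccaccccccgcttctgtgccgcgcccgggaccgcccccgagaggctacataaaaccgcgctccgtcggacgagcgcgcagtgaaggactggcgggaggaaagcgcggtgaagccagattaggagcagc
Jun promoter, chr4:95052173-95052472, minus strand: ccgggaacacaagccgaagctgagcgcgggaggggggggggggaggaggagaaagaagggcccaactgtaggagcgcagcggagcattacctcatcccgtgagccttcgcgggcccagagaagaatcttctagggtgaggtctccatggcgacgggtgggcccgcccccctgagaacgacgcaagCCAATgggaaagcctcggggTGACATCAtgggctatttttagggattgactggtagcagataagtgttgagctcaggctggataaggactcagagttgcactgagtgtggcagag
Fosb promoter, chr7:19309996-19310295, minus strand: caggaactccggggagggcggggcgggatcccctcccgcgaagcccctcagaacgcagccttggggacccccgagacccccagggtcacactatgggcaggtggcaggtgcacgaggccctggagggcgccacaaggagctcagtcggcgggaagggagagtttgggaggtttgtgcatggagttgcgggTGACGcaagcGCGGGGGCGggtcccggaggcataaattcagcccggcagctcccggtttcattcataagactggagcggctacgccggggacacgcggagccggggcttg

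With the start as base 0, Dusp1 held the full element TGACGTCA at -143 to -136 and a further core at -191 to -187. Of the 32851 promoter windows of the same length in the RefSeq table, 1.79% held the full element. Atf3 held the core on the opposite strand at -7 to -3, ahead of a reversed CCAAT at 5 to 9, and Fosb held it at -60 to -56, beside the EGR site GCGGGGGCG at -50 to -42; the core was found in 20.8% of all windows and that EGR site in 2.91%. Jun held TGACATCA at -45 to -38, which 3.62% of windows held, and CCAAT at -65 to -61, which 37.4% held. Egr2 has 5 annotated windows, of which 4 held a CArG box, found in 1.63% of all windows. Of these 4, the windows starting at 67537619, 67537620 and 67537680 overlap and hold the same box, CCATATATGG. These overlapping windows also hold the core, 1 on each strand, and a reversed CCAAT. None of the 9 windows of these 5 genes held TGANTCA, found in 7.81%, or GCGTGGGCG, found in 0.612%. These matches are letters in a window and are no evidence that a factor binds there.

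Atf3, the stress-induced factor that tempers inflammatory transcription, read 11.31, 11.29, 11.85 and 11.17 in DMSO 1 to 4 and 10.63, 11.06, 10.70 and 10.83 in DSHN 1 to 4. All DSHN pools lay below all DMSO pools, with 0.11 between the lowest DMSO and the highest DSHN pool, and DMSO 3 was the highest pool. The mean was 11.40 ± 0.30 in the placebo pools and 10.80 ± 0.19 in the treated ones (SD, n = 4), which differ by -0.60 ± 0.21 (log2, SE), or a level 1.51 times as high in DMSO. The counts behind these values were 1977 to 4551 in DMSO pools and 306 to 2385 in DSHN pools, and the 306 counts of DSHN 1 had a 95% Poisson interval of 272.7 to 342.3, which covers counting error only.

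Dusp1, the phosphatase that ends p38 and JNK signalling, read 13.51, 12.44, 12.81 and 12.46 in DMSO 1 to 4 and 11.95, 12.13, 12.35 and 12.31 in DSHN 1 to 4. The groups did not overlap here either, though only 0.08 (before rounding) lay between DMSO 2 and DSHN 3, and DMSO 1 stood well above all other pools. The placebo mean was 12.80 ± 0.50 and the treated mean 12.18 ± 0.19 (SD, n = 4), which differ by -0.62 ± 0.27 (log2, SE), or 1.54 times as high in DMSO. Without DMSO 1 the difference was -0.38, and without both DMSO 1 and DSHN 1 it was -0.30, so the size of the Dusp1 difference depended on DMSO 1 and its direction did not. For Atf3 the same values were -0.63 and -0.57.

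**Figure D1:**
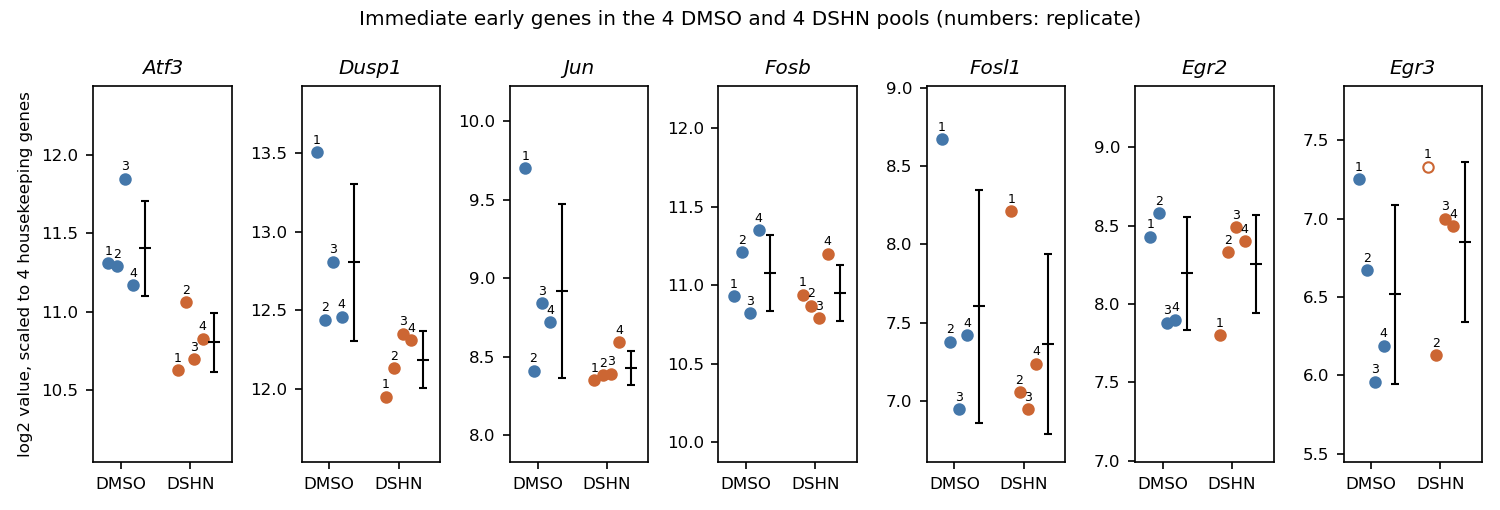
Log2 values scaled to 4 housekeeping genes (vertical axes, each spanning the same range) of the 7 immediate early genes in DMSO (blue) and DSHN (orange) pools. Points are pools with their replicate number, open where the count was under background, and bars give the mean and SD; Atf3 and Dusp1 show no overlap between groups, with gaps of 0.11 and 0.08, while the other 5 genes overlap.

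Of the 4 scalings compared pool by pool, Atf3 was separated between groups with 1, and Dusp1 with all 4. All DSHN pools lay below all DMSO pools in 0.722% of the 554 tested genes with 4 housekeeping genes and in 0.542% with 3. The share was 1.99% with pools scaled to their median and 0.903% with summed gene counts. The protease gene Casp1 and the receptor gene Cd84 were also separated with all 4. Since Dusp1 was picked on this contrast, nothing is read from its separation. Tubb5, 1 of the 4 housekeeping genes, read 8.68 in DMSO 1 and 9.84 to 10.39 in the other pools, which raises every scaled value of DMSO 1. With Tubb5 left out of the scaling, Atf3 overlapped between groups, by 0.32, with a difference of -0.43, and Dusp1 still did not, with 0.01 between the groups and a difference of -0.45. Scaled to the median of each pool, Atf3 overlapped by 0.27 and Dusp1 left a gap of 0.04. As a share of all gene counts, a scaling added after seeing the data that needs no housekeeping gene, Atf3 made up 0.271%, 0.417%, 0.629% and 0.416% in DMSO 1 to 4 and 0.247%, 0.41%, 0.272% and 0.27% in DSHN 1 to 4. DMSO 1 thus lay among the DSHN pools for Atf3. Dusp1 made up 1.25%, 0.924%, 1.22% and 1.02% in DMSO and 0.617%, 0.86%, 0.854% and 0.752% in DSHN, with no overlap. Without DMSO 1, Atf3 did not overlap on the median scale or as a share of counts, with gaps of 0.14 and 0.02, and still overlapped by 0.06 with Tubb5 left out.

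Jun, the AP-1 subunit that JNK activates, read 9.70, 8.41, 8.84 and 8.72 in DMSO 1 to 4 and 8.35, 8.38, 8.39 and 8.59 in DSHN 1 to 4. The 4 DSHN pools were close together, DMSO 2 lay within their range and DMSO 1 far above it. The difference was -0.49 ± 0.28 (log2, SE), and it was -0.23 without DMSO 1 and -0.20 without DMSO 1 and DSHN 1. Its SD was 0.55 in DMSO and 0.11 in DSHN.

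Fosb, an AP-1 subunit of the Fos family, read 10.93, 11.21, 10.82 and 11.35 in DMSO 1 to 4 and 10.94, 10.87, 10.79 and 11.20 in DSHN 1 to 4. The groups overlapped over nearly their whole range. The difference was -0.13 ± 0.20 (95% interval -0.57 to 0.32), and it was 0.05 with Tubb5 left out of the scaling. Fosb had the smallest spread between pools of the same treatment of the 7 genes, an SD of 0.21, and 8.8% of the 554 tested genes had a smaller one. Fosl1, which encodes the Fos-related factor FRA-1, read 8.67, 7.38, 6.95 and 7.42 in DMSO 1 to 4 and 8.21, 7.06, 6.95 and 7.24 in DSHN 1 to 4. It was the most variable of the set, with an SD within groups of 0.66 that exceeded that of 69.5% of tested genes, and the first pool of each group was its highest. The difference was -0.24 ± 0.41 (95% interval -1.15 to 0.68) and turned to 0.12 without DMSO 1. In DSHN 1 the Fosl1 count was 57 (95% Poisson interval 43.2 to 73.9) against a background limit of 40.

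Egr2, a zinc finger factor induced in activated macrophages, read 8.43, 8.58, 7.88 and 7.90 in DMSO 1 to 4 and 7.80, 8.33, 8.49 and 8.40 in DSHN 1 to 4. Pools of both groups were interleaved, and the difference was 0.06 ± 0.25 (95% interval -0.50 to 0.62). The lowest pool, DSHN 1, rested on 43 counts, close to its background limit of 40, and without DMSO 1 and DSHN 1 the difference was 0.29. Egr3, a related factor, read 7.25, 6.67, 5.96 and 6.19 in DMSO 1 to 4 and 7.33, 6.13, 7.00 and 6.95 in DSHN 1 to 4. DSHN 1 was its highest pool but with 31 counts lay under background there, which made Egr3 the only gene of the set not above background in all 8 pools. Its difference was 0.34 ± 0.36 (95% interval -0.46 to 1.14), and 0.10 after background was subtracted. Egr3 was the gene with the highest difference of the set, and its groups overlapped.

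Over the set, 5 of the 7 genes had a lower mean in DSHN and 2 a higher one, with a median difference of -0.24, while a lower mean was found in 46.6% of all 554 tested genes, whose median was 0.03. In 2 of the 7 all DSHN pools lay below all DMSO pools, as in 0.722% of tested genes: those 4 genes were Atf3, Dusp1, the protease gene Casp1 and the receptor gene Cd84. Since the set was chosen on this contrast, nothing is read from these shares. After Benjamini-Hochberg adjustment 0 of 554 genes, or 0%, were called in limma (lowest adjusted p = 0.925), against 20 genes at an unadjusted p under 0.05, of which 17 were higher and 3, or 0.542% of tested genes, lower. On the values as deposited, all 7 genes had lower means in DSHN, with differences of -2.52 to -1.57. The mean of the housekeeping genes on that scale was 10.98 to 13.37 in DMSO and 7.86 to 10.84 in DSHN, so they shared the shift, which the scaling takes out.

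**Figure D2:**
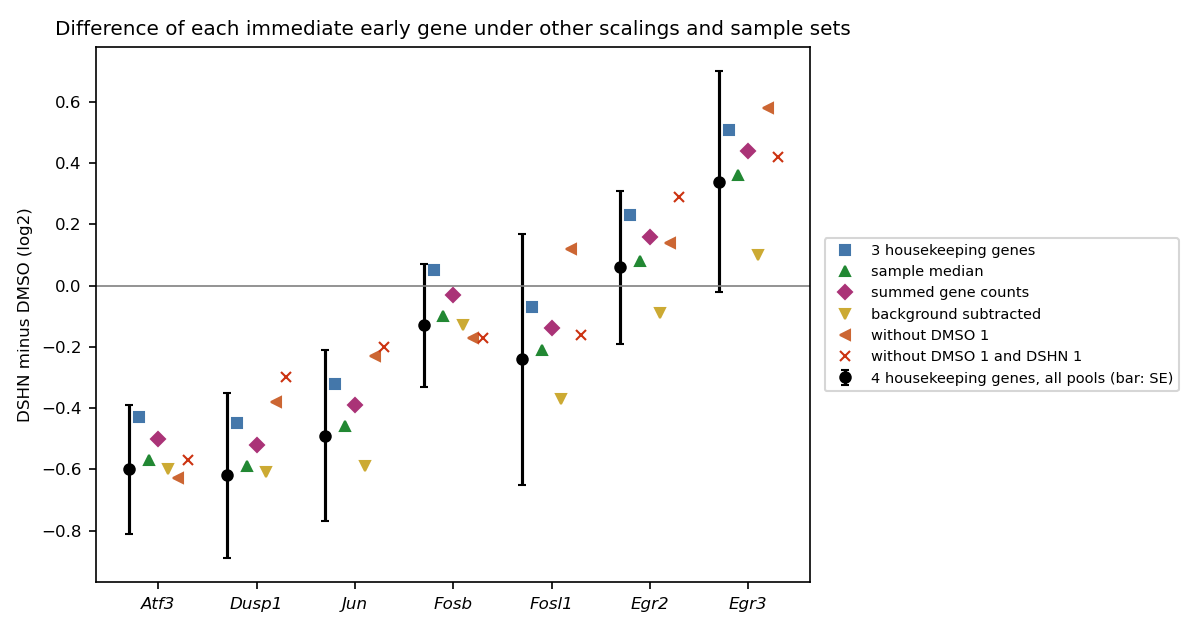
Difference DSHN minus DMSO (vertical axis, log2) of each immediate early gene with all pools scaled to 4 housekeeping genes (black, bar gives the SE) and under 6 other scalings or sample sets. Atf3, Dusp1 and Jun stayed below 0 in every setting drawn, Egr3 stayed above 0, and Fosb, Fosl1 and Egr2 lay on both sides.

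Between pools of the same treatment the 7 genes deviated in differing ways, a comparison that the choice of the set did not use. After each group's mean was removed, the 21 pairs of genes had Pearson correlations over the 8 pools from -0.66, for Atf3 and Egr3, to 0.93, for Dusp1 and Jun, with a median of 0.03, and 13 of the 21 were above 0. Without DMSO 1 and DSHN 1, 9 of the 21 were above 0 and the median was -0.09, and with pools scaled to their median these values were 9 and -0.17. Dusp1 and Jun had the highest correlation (Pearson r = 0.93, exact two-sided permutation within groups p = 0.0104, 0.219 after Benjamini-Hochberg adjustment over the 21 pairs; Spearman rho = 0.95, p = 0.00521, adjusted 0.109, over 576 orders). It did not pass the adjustment. With DMSO 1 and DMSO 2, the pools farthest from the median Dusp1 deviation, left out, r was 0.75, and without DMSO 1 and DSHN 1 it was 0.67. With all pools scaled to their median, r for Dusp1 and Jun was 0.87. Fosl1 and Egr3 followed (r = 0.80, exact permutation p = 0.0382, adjusted 0.401; rho = 0.64, p = 0.135, adjusted 0.811), and r was 0.40 without DMSO 1 and DSHN 1, the pools with the highest Egr3 deviations, and 0.82 without DMSO 3 and DSHN 2, the pools farthest from the median Egr3 deviation, which leaves DMSO 1 in. No other pair had an unadjusted p under 0.05 in the same permutation tests. For Atf3 and Dusp1, the pair with lower values in all DSHN pools, no correlation within groups was shown (r = 0.13, exact permutation p = 0.842, adjusted 0.969; rho = 0.50, p = 0.283, adjusted 0.811). For Fosb and Fosl1, r went from -0.03 to 0.97 when DMSO 1 and DSHN 1 were left out, and was -0.48 with pools scaled to their median. All these values share the scaling factor of a pool.

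**Figure D3:**
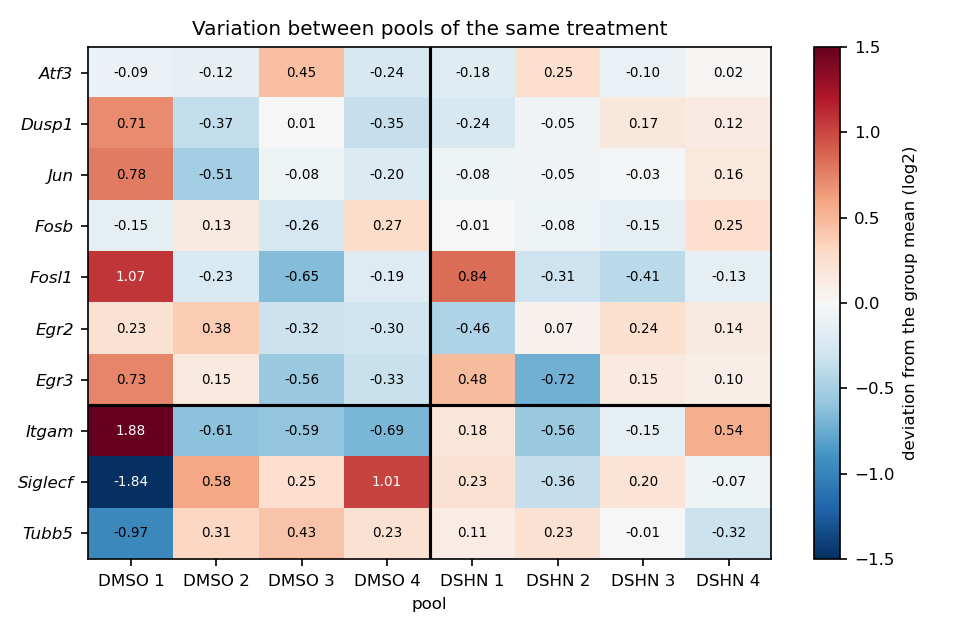
Deviation of each pool from the mean of its own group (colour and number, log2, scaled to 4 housekeeping genes) for the 7 immediate early genes and, under the line, Itgam, Siglecf and Tubb5. DMSO 1 deviates by 0.71 to 1.07 in Dusp1, Jun, Fosl1 and Egr3 and by -0.09 and -0.15 in Atf3 and Fosb, and in the genes under the line it is the most extreme pool.

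DMSO 1 was the highest pool for Dusp1, Jun and Fosl1, as it was for 221 of the 554 tested genes. It was also the highest for 8 of 10 tested neutrophil markers and 11 of 19 monocyte and macrophage markers, and the lowest for 2 of those 19. For 4 of 11 dendritic cell markers it was the lowest and for 1 the highest, while it was the lowest for 87 of the 554 tested genes. The mean of the neutrophil markers was 11.23 in DMSO 1 and 9.90 to 10.07 in the other DMSO pools, against 9.61 to 10.54 in DSHN. In sum these genes made up 14.2% to 24.1% of gene counts in DMSO and 13.6% to 23.5% in DSHN, ranges that overlap, and none of the neutrophil or monocyte markers was listed at 0. Monocyte and macrophage markers made up 4.35% to 7.02% in DMSO and 3.21% to 6.96% in DSHN. The ranks above are on the scale of the 4 housekeeping genes, which raises DMSO 1. By share of counts, DMSO 1 was the DMSO pool with the lowest monocyte and macrophage value, 4.35%, and the highest neutrophil value, 24.1%. The part of cell composition in the Dusp1, Jun and Fosl1 values of DMSO 1 was not tested. Among the 285 other genes above background in all pools, those whose deviations followed the mean of the 6 fully detected immediate early genes most closely over the 8 pools included Ccl2 (r = 0.99), Tnfaip3 (0.98), Itgam (0.97) and Csf1r (0.97). Csf1r marks macrophages and monocytes, Ccl2 is a monocyte attractant and Tnfaip3 a brake on NF-kB. The most opposed were Csf2ra (-0.98), Tubb5 (-0.97) and Siglecf (-0.94), a lectin of alveolar macrophages and eosinophils. Without DMSO 1 and DSHN 1, r was 0.62 to 0.90 for the first 4 genes and -0.75 to -0.21 for the last 3. With pools scaled to their median instead, r was 0.01 to 0.55 and -0.14 to -0.03, so these likenesses depended on the scaling, in which Tubb5 itself takes part.

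Looked at gene by gene, a choice made after the values were seen, the deviations of Atf3 were followed most closely by Nlrp3, the inflammasome sensor (r = 0.75 over 8 pools, 0.76 without DMSO 1 and DSHN 1). Dusp1 was followed by the chemokine receptor genes Ccrl2 and Ccr1 (0.96 each, 0.69 and 0.61 without those pools). Egr2 was followed by Il6ra, which encodes the interleukin 6 receptor (0.96, and 0.94 without them). Fosb was followed by Olr1, a scavenger receptor gene (0.91, and 0.99 without them). Fosl1 was followed by Gsn, the gene of the actin-severing protein gelsolin (0.97, and 0.59 without them), and Jun by the chemokine gene Ccl5 (0.95, and 0.52 without them). These are the highest of 285 values for each gene named and are descriptions. They were not computed with pools scaled to their median, a scaling under which the likenesses to the mean of the set fell.

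The other genes of the same programme lay on both sides of 0. Of 23 tested immediate early and feedback genes outside the set, 16 had a lower mean under DSHN and 7 a higher one (median -0.11), and 0 were called after adjustment in limma, with 0 at an unadjusted p under 0.05. When DMSO 1 and DSHN 1 were left out, 13 of 23 were higher (median 0.04). Klf4, a zinc finger factor of monocyte differentiation, differed by -0.53 ± 0.27, with 9.45 to 10.42 in DMSO and 8.94 to 9.63 in DSHN, and by -0.21 without those pools. Nfkbiz, an inducible cofactor of NF-kB, differed by -0.45 ± 0.30, and by -0.15 without them. A pair of phosphatases related to Dusp1, named after their values were seen, differed by -0.06 ± 0.27 (Dusp2) and 0.34 ± 0.29 (Dusp6). The orphan nuclear receptors Nr4a1 and Nr4a2, also named afterwards, differed by -0.10 and 0.03.

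Upstream, 9 genes of the MAP kinase pathway were tested, of which 5 were higher and 4 lower (median 0.01), with 0 called in limma and 0 at an unadjusted p under 0.05. Map2k1, the kinase that activates ERK, differed by -0.28 ± 0.24, and by -0.09 without DMSO 1 and DSHN 1. Of 8 other basic leucine zipper genes, potential partners of the AP-1 and ATF proteins, 3 were higher and 5 lower; their median was -0.26, and 0.00 without those pools. In limma 0 were called and 0 had an unadjusted p under 0.05. Cebpa, a factor of myeloid differentiation, differed by -0.47 ± 0.23, and by -0.42 without those pools.

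Downstream, 28 rapidly induced cytokine and effector genes were tested, of which 9 were higher and 19 lower (median -0.18). In limma 0 were called and 1, the growth factor gene Csf2, had an unadjusted p under 0.05, as higher; Csf2 was above background in 5 of the 8 pools. With all pools 22 of the 28 were highest in DMSO 1. When DMSO 1 and DSHN 1 were left out, 23 of 28 were higher (median 0.23). Ccl2, which recruits monocytes, differed by -0.66 ± 0.75, and by 0.37 without those pools. Cxcl1, which recruits neutrophils, differed by -0.60 ± 0.48, and by 0.14 without them. Of 14 tested genes linked to AP-1 or EGR factors, 5 were higher and 9 lower (median -0.16, or 0.06 without those pools), and 0 were called in limma and 0 had an unadjusted p under 0.05. In this list Fn1, which encodes fibronectin, differed by -0.38 ± 0.50, or 0.34 without those pools, and Mmp8, a neutrophil collagenase gene, by -0.37 ± 0.46, or -0.07. Of the heat shock and unfolded protein list, 2 of 23 genes were measured, Calr and Cdkn1a, of which Cdkn1a is a cell cycle inhibitor gene. Calr differed by -0.37 ± 0.26, or -0.04 without those pools, and Cdkn1a by -0.09 ± 0.19, or 0.02. In limma 0 of these 2 genes were called or had an unadjusted p under 0.05.

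Markers of cell types that the beads could have kept were also on the panel, and in limma 0 genes of any of these lists were called after adjustment. Of 10 tested neutrophil markers 6 were lower (median -0.15, or 0.05 without DMSO 1 and DSHN 1), with Csf3r, the granulocyte growth factor receptor gene, at -0.44 ± 0.34, or -0.08. Of 19 monocyte and macrophage markers 12 were lower (median -0.11, or 0.06), with the lysosomal marker Cd68 at -0.52 ± 0.28, or -0.14. Of 11 dendritic cell markers 7 were higher (median 0.05, or 0.06), with Itgax at 0.41 ± 0.45, or -0.03 without those pools, and the antigen presentation gene H2-Ab1 at -0.28 ± 0.31, or -0.12. Of 7 eosinophil, basophil and mast cell markers 6 were higher (median 0.69, or 0.08), with Prg2, an eosinophil granule protein gene, at 0.62 ± 0.52 and Siglecf at 0.28 ± 0.54, and -0.12 and -0.41 without those pools. The mean of this list was highest in DSHN 1, the pool with the fewest counts, at 8.5 against 6.94 to 7.66 in the other DSHN pools. Of its 14 measured genes, 3 were above background in all pools. No gene was above background in all 8 pools among the T and NK cell, B cell, endothelial and stromal, epithelial and tumour, and proliferation lists. Of these lists 4, 1, 7, 1 and 5 genes were tested. Their medians were 0.43, 0.41, 0.37, 0.41 and 0.50, or 0.17, 0.34, 0.37, 0.29 and 0.33 without DMSO 1 and DSHN 1. DSHN 1, the pool with the fewest counts, had the highest mean in each of these lists. At an unadjusted p under 0.05, the number was 1 monocyte and macrophage gene, 1 dendritic cell gene and 1 T and NK cell gene. It was 2 for endothelial and stromal genes and 2 for eosinophil, basophil and mast cell genes. Among all 554 tested genes it was 20, 17 of them higher in DSHN. The highest difference among dendritic cell markers was 2.31 (Lamp3, above background in 5 of 8 pools). It was 1.42 for T and NK cell markers (Cd247, 6 of 8) and 1.5 for endothelial and stromal markers (Cdh5, 4 of 8). For eosinophil, basophil and mast cell markers it was 1.64 (Il13, 5 of 8). Of T and NK cell markers 1 was lower, and of endothelial and stromal markers 2.

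**Figure D4:**
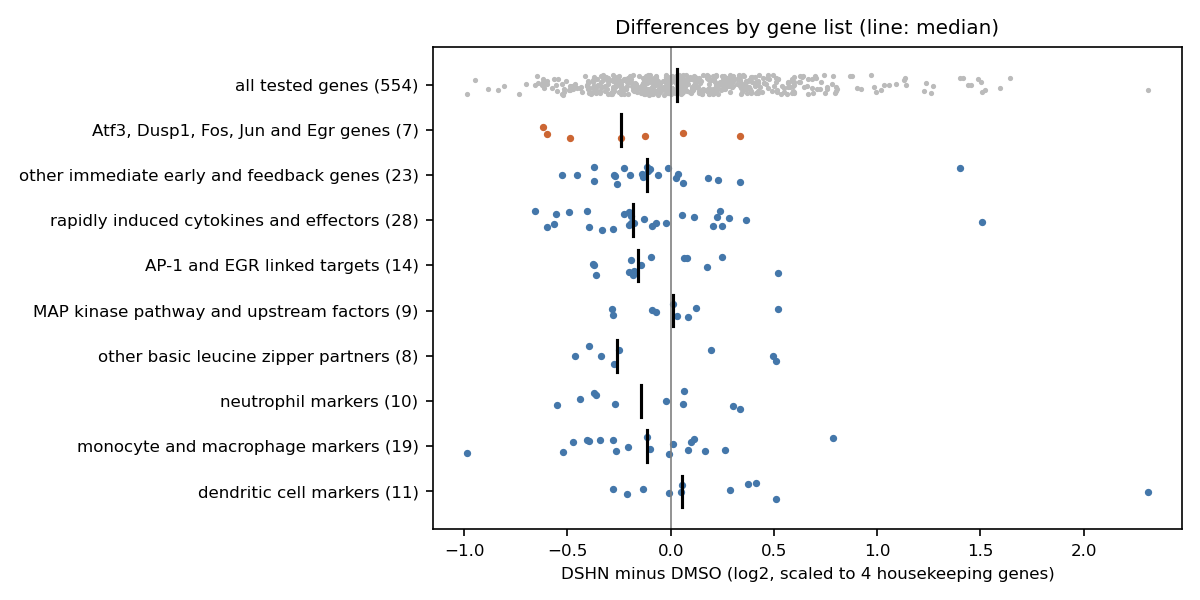
Difference DSHN minus DMSO (horizontal axis, log2, scaled to 4 housekeeping genes) of every tested gene (grey), the 7 immediate early genes (orange) and the members of 8 gene lists (blue), with black lines at the medians and the number of genes in brackets. Medians ran from -0.26 for the other basic leucine zipper genes to 0.05 for dendritic cell markers, beside 0.03 for all 554 tested genes.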

How the data were processed

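The 8 pools were measured with a NanoString nCounter panel of 768 rows, of which 754 are genes, 6 positive and 8 negative controls. The authors deposited log2 values with 2 decimals; which software made them is unstated in the labels. Worked out from the values, control rows are whole counts, and the gene rows of each pool carry 1 factor, between 0.604 and 6.824, close to that of the 5 brightest positive controls. Divided by it, 100.0% of values under 40 counts were whole within 0.01 on the log2 scale, and the recovered counts are those used here. The background limit came from the negative controls (mean plus 2 SD) and ran from 18.0 to 40.0 counts.

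Each pool was scaled to the mean log2 of Oaz1, Ppia, Rpl19 and Tubb5. DSHN was compared with DMSO in limma 3.58.1 (R 4.3.3, variance trend, no covariates) over the 554 genes with a deposited value of 20 or more in at least 4 pools, with Benjamini-Hochberg adjustment at 0.05. The script was tested on simulated data. Nothing in the labels names batches. Pools hold separate animals, and each counted as 1 replicate.

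The set and the gene lists were chosen with earlier results of these data known. Named besides the set were the 5 genes most like its mean and the 3 most opposed, and from each list described the 2 fully detected genes with the largest differences; for some genes that these rules picked, the result is not reported here. Alternatives were other scalings, filters, variance models, a replicate block, sample weights, background subtraction and leaving out pools. Scaling to summed counts, and combinations of other scalings with pools left out, were chosen after seeing the data.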

Additional observations from a re-analysis of the deposited data

Results flagged for a closer look

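DSHN 1 stood apart from the other DSHN pools in 2 of 22 checks of single pools against their group, of which chance flags about 1 in 20. It had 293 genes above background, against 529 to 549 in the other DSHN pools. Its housekeeping mean on the deposited log2 scale was 7.86, against 10.50 to 10.84. For the immediate early genes this pool had the lowest counts, from 31 for Egr3 to 764 for Dusp1. In none of the 7 immediate early genes did a pool stand apart by the same measure in either group, and the distance of DMSO 1 in Jun and Dusp1 did not reach it.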

How the results depend on the processing

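Settings named here left 0 genes called after adjustment, except sample weights, with 1 call (Csf2, above background in 5 of 8 pools, 1.46, limma adjusted p = 0.0274). The number at an unadjusted p under 0.05, 20 as reported, was 196 on the values as deposited, all lower in DSHN, 40 without a filter on low values, 2 with a filter of 100 in all pools, 43 with sample weights, 12 after background subtraction and 35 when scaling used 3 housekeeping genes and neither DMSO 1 nor DSHN 1 was kept. With those 3 genes and only DMSO 1 left out it was 31; both combinations were chosen after seeing the data. It was 11 to 28 when each pool was left out in turn, and 11 without DSHN 3 and 12 without DSHN 1. With the replicate block it was 11. Pools of the same number did not deviate together (correlations from -0.29 to 0.14) and no pool correlated best with its own number, so the numbers are only names.

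The median difference of the 7 immediate early genes, -0.24 as reported, was -2.14 on the deposited values, -0.07 with Tubb5 removed from the scaling and -0.46 to -0.10 without 1 pool. Deposited values aside, Atf3 stayed between -0.74 and -0.34 over 25 alternatives, Dusp1 between -0.74 and -0.25 over 25, Jun between -0.66 and -0.13 over 24 and Egr3 between 0.10 and 0.64 over 24. The filters, the variance model and the replicate block are counted among these alternatives, though they cannot change the difference of a gene. The sign of Egr2 turned in 4 alternatives, that of Fosb in 2 and that of Fosl1 in 3, each of them without DMSO 1. Of the 5 genes most like the set, 2 were among the top 5 by Spearman's rho, and 0 with median scaling or without DMSO 1 and DSHN 1. The cause of these changes was not tested.

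Depth limits Egr3, Egr2 and Fosl1 in DSHN 1, where their counts were 31, 43 and 57 against a background limit of 40.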
